A study of Homo sapiens with 9 samples.

Results

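The regions described here were those whose chromatin accessibility was higher with the antisense oligonucleotide ASO2 than with the control oligonucleotide NCA, and near the control level with ASO10. They were chosen from the measured values. CPM is the count of a region divided by the library total and multiplied by 1000000. A region was taken when its mean CPM over the 9 libraries was at least 2, every ASO2 library lay above every NCA library, the ASO2 mean was at least 75% above the NCA mean, and the ASO10 mean was at most 20% below or 25% above the NCA mean. Of 148797 regions in the table, 72424 had a mean CPM of at least 2 and are called eligible below, and 1975 of these met every criterion.

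The libraries were ATAC-seq libraries of the human neuroblastoma cell line SK-N-BE(2)c. Cells were transfected by lipofection with 100 nM of ASO2, ASO10 or NCA and collected 48 h later, with 3 libraries in each of the 3 groups. ASO2 and ASO10 are antisense oligonucleotides directed at NESPR, a long non-coding RNA. NCA is the negative control oligonucleotide, so all cells received an oligonucleotide and lipid and none was untransfected. Nothing in the labels says whether the libraries of a group came from separate cultures, so p-values measure the spread between these libraries, which may be technical. The level of NESPR RNA is not measured by this assay, and the effect of either oligonucleotide on its target could not be checked here.

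ATAC-seq uses the Tn5 transposase to cut DNA that is free of nucleosomes, so a region's count rises with how often its DNA is open. Open regions include promoters, which are open in many cell types, and distal elements such as enhancers, which lie between genes or in introns and differ more between cell states. In adrenergic neuroblastoma cells the factors HAND2, GATA3 and ISL1 are known to maintain cell identity through such distal elements. In a bulk library, a region opened in more cells and a region opened further in each cell cannot be told apart.

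Library totals ranged from 7293565 to 10948569 counts, and scaling factors from 0.975 to 1.02. Among adrenergic genes, HAND2 had an open region at an end of the gene (1 kb or less away) with 23.4 CPM and DBH one with 18.0 CPM in the NCA group, while TH had none. Among the genes of other cell types, TWIST1 had 27.6 CPM, FOSL1 3.51 CPM and PTPRC 3.19 CPM in the NCA group. No region lay at the ends of PRRX1 or CD3E. The part of other cell types or cell states in the results below was not tested.

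The sequences below show the start regions of genes that lay inside the set, because almost none did. Of 27326 promoter windows of the RefSeq table (GRCh38.p14, from 250 bases before to 50 bases after a gene's start), 13034 lay at least in part in an eligible region and 11 in a selected region. These 11 belonged to 3 protein-coding genes, LMNTD1, LNX1 and GOLGA6L2, and 8 long non-coding genes. Their median GC content was 48.3%, against 66.0% for windows in eligible regions, and their median number of CG pairs was 4 against 27. The motif TGANTCA was found in 3 of the 11 windows (27.3%), in 4.15% of windows in eligible regions and in 7.77% of all windows. It is wider than the site that AP-1 factors are known to bind, TGAGTCA or TGACTCA. The motif GATAAG, searched on both strands as the core that GATA factors are known to bind, was found in 5 of 11 (45.5%), in 3.54% and in 6.36%. TGANTCA reads the same on both strands, and TGANTCA and GATAAG cannot overlap each other. CANNTG and CCAAT were searched as well. CANNTG was found in 8 of 11 (72.7%), in 59.0% of windows in eligible regions and in 68.9% of all windows. CCAAT was found in 6 of 11 (54.5%), in 36.5% and in 35.7%. With 11 windows all these shares are a description. Of the 13034 windows in eligible regions, 10074 belonged to protein-coding genes, against 3 of the 11. GC content and gene type were not separated from the motif shares. All windows with TGANTCA and 1 with GATAAG but no TGANTCA are printed 5′ to 3′ on the gene's strand. TGANTCA and GATAAG are in capitals (GATAAG appears as CTTATC where it lies on the other strand).
LMNTD1, chr12:25648579-25648828, minus strand: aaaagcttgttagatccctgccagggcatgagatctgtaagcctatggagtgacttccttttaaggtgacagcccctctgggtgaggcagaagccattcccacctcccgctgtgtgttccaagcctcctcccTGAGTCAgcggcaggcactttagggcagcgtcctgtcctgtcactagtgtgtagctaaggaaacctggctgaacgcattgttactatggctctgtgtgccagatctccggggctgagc
LOC101929551, chr2:7899606-7899905, minus strand: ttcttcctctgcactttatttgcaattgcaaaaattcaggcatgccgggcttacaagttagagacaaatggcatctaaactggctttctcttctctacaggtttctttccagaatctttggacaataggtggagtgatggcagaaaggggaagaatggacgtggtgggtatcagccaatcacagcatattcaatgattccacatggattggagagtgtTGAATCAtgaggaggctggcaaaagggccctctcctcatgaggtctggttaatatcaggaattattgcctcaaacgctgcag
ABCC5-AS1, chr3:184006088-184006387, plus strand: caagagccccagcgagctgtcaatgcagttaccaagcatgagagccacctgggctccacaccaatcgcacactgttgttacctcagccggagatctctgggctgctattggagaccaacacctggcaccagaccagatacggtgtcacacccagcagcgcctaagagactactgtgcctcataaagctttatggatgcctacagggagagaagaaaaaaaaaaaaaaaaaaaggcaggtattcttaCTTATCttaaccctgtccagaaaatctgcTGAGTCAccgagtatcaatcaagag
LINC00613, chr4:135913631-135913930, minus strand: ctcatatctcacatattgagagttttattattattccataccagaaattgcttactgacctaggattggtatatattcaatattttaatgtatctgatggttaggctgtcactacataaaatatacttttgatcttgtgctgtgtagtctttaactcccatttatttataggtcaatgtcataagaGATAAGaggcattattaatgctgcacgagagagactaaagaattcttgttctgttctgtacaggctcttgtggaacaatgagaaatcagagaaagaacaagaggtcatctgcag
The LMNTD1 sequence stops at the start site, where its transcript begins, and the others run to the end of the window. LMNTD1 holds TGANTCA 118 bases before its start and no GATAAG. LOC101929551 holds TGANTCA 32 bases before its start, in the form TGAATCA, which is outside the narrower AP-1 site. ABCC5-AS1 holds GATAAG across its start and TGANTCA 25 bases after it, and LINC00613 holds GATAAG 64 bases before its start.

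The windows of LMNTD1, LOC101929551 and ABCC5-AS1 lay whole inside a selected region. The region at LMNTD1 (chr12:25648491-25649230), a gene encoding a lamin tail domain protein, had 19.9, 14.2 and 14.2 CPM with ASO2, 8.11, 10.6 and 8.32 with ASO10, and 9.06, 5.80 and 7.87 with NCA. All ASO2 libraries lay above all others, and those of ASO10 and NCA overlapped. The region at ABCC5-AS1 (chr3:184006050-184006435) had 11.9, 9.37 and 9.68 CPM with ASO2, 4.23, 3.45 and 2.23 with ASO10, and 2.94, 1.60 and 3.597 with NCA. Its ratio of ASO2 to NCA means was 3.81. The region at LOC101929551 (chr2:7899356-7899950) had 4.39, 8.96 and 6.39 CPM with ASO2 against 3.45, 2.96 and 1.80 with NCA. Its first ASO2 library stood nearest to NCA.

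**Figure D1:**
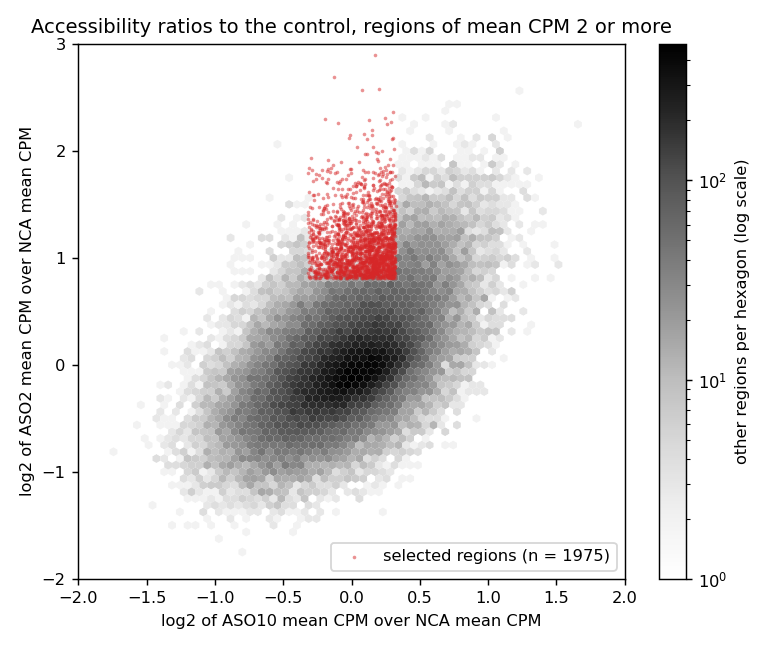
Each eligible region on a main chromosome is placed by the log2 ratio of ASO10 to NCA mean CPM (horizontal) and of ASO2 to NCA mean CPM (vertical). Grey hexagons count the regions outside the set on a log scale, and red points are the 1975 selected regions, whose straight edges are the limits of the rule; regions higher with ASO2 continue to the right of the set, where ASO10 was over 25% above NCA.

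The criteria removed regions in steps. Every ASO2 library lay above every NCA library in 10887 eligible regions (15.03%), and the ASO2 mean was 75% or more above NCA in 5159 of them (7.12%). Of these 5159 regions, ASO10 was over 25% above NCA in 2914, within the band in 1975, and over 20% below NCA in 270. As the plot of both ratios shows, the set is the middle band of a continuous distribution, with more regions on its ASO10-higher side than on its ASO10-lower side. Inside the set the ASO10 mean was also above the NCA mean in 1335 regions (67.6%), with a median ratio of 1.08. The name "ASO2 only" therefore describes the limits of the rule. With the same rule mirrored, 411 regions were lower with ASO2 only, 130 higher with ASO10 only, and 608 higher with both.

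The members were weak to moderate regions. Median CPM was 6.17, 6.28 and 6.03 in the 3 ASO2 libraries, 2.97, 2.89 and 2.85 with ASO10, and 2.81, 2.71 and 2.81 with NCA. The highest ASO2 value came from replicate 1 in 672 regions, from replicate 2 in 777 and from replicate 3 in 526. Median counts were 45, 61 and 66 with ASO2 and 22, 22 and 25 with NCA. Every ASO2 library was above every ASO10 library in 1818 members (92.1%), where 14.4% of eligible regions had this order. The rule fixes most of this difference. All ASO10 libraries lay above all NCA libraries in 29 members (1.47%) and below them in 8 (0.405%). The band on the ASO10 mean limits both counts. Their shares over eligible regions were not computed, so nothing is read from them.

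The ratio of ASO2 to NCA means had a median of 2.1 (quartiles 1.90 and 2.43, range 1.7502 to 7.47). It was at least 2 in 1201 members (60.8%), at least 3 in 154 and at least 4 in 23. The limit on the mean CPM makes a low-level region need a larger ratio to enter, so the ratios by control level are a description. The median was 2.29 in the 545 members under 2 CPM with NCA, 2.12 in the 872 from 2 to 4 CPM, 1.96 in the 447 from 4 to 8 CPM and 1.88 in the 104 from 8 to 16 CPM. A low control level also has the widest counting error, with a median coefficient of variation of 24.4% over the NCA libraries of a member against 15.9% over its ASO2 libraries. Members inside genes had a median ratio of 2.11 and members outside genes 2.09.

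Because the rule used these contrasts, the calls of the fit across all regions are given as a description. edgeR's quasi-likelihood test (adjusted p under 0.05 over the 119417 regions tested) called 1371 of 1975 members (69.4%) higher with ASO2 than NCA, where 4.8% of all tested regions were called higher and 0.807% lower, and it called no member lower (none had an unadjusted p under 0.05, and DESeq2 called 0). Without ASO2 replicate 2 the count was 892. For ASO10 against NCA, edgeR called 0 members in either direction, where 0.875% of all regions were higher and 0.21% lower. The unadjusted p was under 0.05 in 4 members, all higher, and DESeq2 called 0. Between ASO2 and ASO10, 1045 members (52.9%) were called higher, where 2.55% of all regions were higher and 0.682% lower, and 0 were called lower by edgeR or by DESeq2, none with an unadjusted p under 0.05. That count was 606 without ASO2 replicate 2, and 695, 659 and 688 without ASO10 replicate 1, 2 and 3. Each of these comparisons shares libraries with another.

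Members that lay at the limits of the rule differed little from regions just outside it. In GPC6 a member (chr13:93963459-93964160) had an ASO2 to NCA ratio of 1.7502, and a region in PTPRR (chr12:70756257-70757096) missed the set at 1.7491. A region in SH3RF1 (chr4:169156816-169157939) was kept at an ASO10 to NCA ratio of 1.24997, just under the limit, and a region near MAP3K21 (chr1:233484686-233485188) was left out just over it. At the lower limit a region near IPMK (chr10:58172391-58173637) was kept at 0.802 and a region in MTAP (chr9:21919638-21920282) was left out at 0.798. At the limit on the mean, a region in HEMK2 (chr21:28824163-28824515) was kept with 2.004 CPM and a region near SCAMP5 (chr15:74978304-74978796) was left out with 1.9998 CPM. In ALCAM a member (chr3:105413287-105413653) had its lowest ASO2 library at 1.0003 times its highest NCA library, while a region in HSD17B3 (chr9:96256660-96257100) was left out at 0.9997 times.

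The 8 members with the highest ratios, among those with at least 1 CPM in NCA, lay at PTH2R, TMEM272, DDR2, LCORL, MAD2L1, WDFY3, MAML2 and ADK. The highest lay 50.2 kb from PTH2R, a gene for a parathyroid hormone family receptor (chr2:208544720-208545689), inside a long non-coding gene. It had 11.9, 9.89 and 11.9 CPM with ASO2, 2.63, 2.56 and 2.85 with ASO10, and 2.68, 1.97 and 2.14 with NCA. Its ASO2 libraries were all more than 3 times as high as any other library, and the ASO2 to NCA ratio was 4.96. An intronic or exonic position could not be read from the gene table, which gives gene ends only. Within the gene DDR2, which encodes a collagen receptor kinase (chr1:162761835-162762372), the values were 4.66, 6.70 and 4.84 CPM with ASO2, 1.14, 1.111 and 1.37 with ASO10, and 0.255, 1.48 and 1.57 with NCA. The first NCA library of this region stood low, and the other 2 NCA libraries lay just above the ASO10 libraries. The member 54.4 kb from MAD2L1, a spindle checkpoint gene (chr4:120000772-120001265), had 7.13, 10.8 and 8.86 CPM with ASO2, 1.37, 2.67 and 2.36 with ASO10, and 2.42, 2.22 and 1.35 with NCA. The ratios of the other 5 ranged from 4.35 at ADK, which encodes adenosine kinase, to 4.93 at TMEM272.

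The strongest members by mean CPM had smaller ratios. The first lay 16.2 kb from CD96, a gene for a receptor of T and NK cells (chr3:111524519-111525995). It had 39.5, 46.4 and 40.1 CPM with ASO2, 16.3, 14.6 and 13.4 with ASO10, and 20.8, 13.6 and 20.5 with NCA. All ASO2 libraries stood well above the other 6, while ASO10 overlapped NCA and had a mean 0.81 times as high. Within STAU2, which encodes an RNA-binding protein of neurons (chr8:73520513-73521157), the values were 41.0, 32.9 and 33.1 CPM with ASO2, 18.7, 19.9 and 16.01 with ASO10, and 18.5, 17.3 and 14.7 with NCA. The remaining 3, in NTPCR, SLCO3A1 and CFAP95, had ratios of 1.7504, 1.81 and 1.82. In SLCO3A1, a gene of the organic anion transporter family (chr15:91866180-91867987), ASO10 had 22.05, 20.8 and 22.2 CPM, above all NCA libraries (18.6, 16.3 and 18.3) and below all ASO2 libraries (30.3, 34.0 and 31.97).

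The set was almost free of gene ends. Of the 1975 members, 19 (0.962%, 95% Wilson interval 0.617% to 1.498%) lay within 1 kb of an end of a protein-coding gene, against 18.1% of the 71637 eligible regions on main chromosomes. At start sites alone the shares were 0.378% of 1852 members and 14.4% of 67803 eligible regions, without chromosome 8, whose 123 members and 3834 eligible regions have no start site used here. With a 5 kb window they were 6.38% and 26.5%, and with long non-coding genes counted as well they were 3.39% and 22.9%. The interval covers counting error only. With the set chosen again without ASO2 replicate 2, 1.45% lay within 1 kb. The median distance from a member to the nearest gene end was 84.6 kb (quartiles 25.9 and 252.0 kb), against 27.6 kb for eligible regions.

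Counted the other way, the share of eligible regions that entered the set changed with distance. It was 0.147 per 100 at most 1 kb from a gene end, 1.94 from 1 to 10 kb, 2.58 from 10 to 50 kb, 4.09 from 50 to 200 kb and 5.98 from 200 kb to 1 Mb. Beyond 1 Mb, where 54 members lay, it was 1.66. The share thus rose with distance up to 1 Mb and was lower past it. Over 200 kb from any gene end lay 590 members (29.9%), against 17.1% of eligible regions. Inside a protein-coding gene lay 987 members (49.97%, against 55.1%), and 267 of the 988 others lay inside a long non-coding gene. Over members inside a gene, the median length of the host gene was 274 kb, against 103 kb over eligible regions inside a gene. A gene counts here once for each of its regions. Within 500 kb of a member lay a median of 4 protein-coding genes, against 7.

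**Figure D2:**
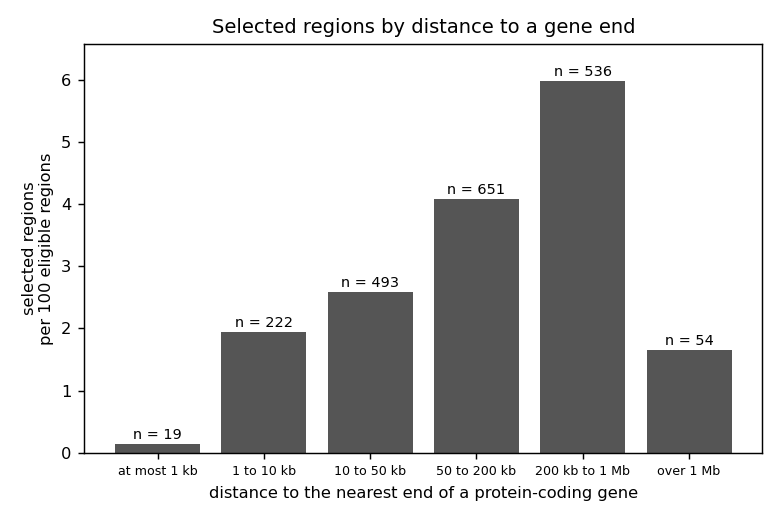
Bars give the number of selected regions per 100 eligible regions in 6 classes of distance to the nearest end of a protein-coding gene, with the number of selected regions above each bar. The bars rise from 0.147 at most 1 kb away to 5.98 between 200 kb and 1 Mb, and the last bar, beyond 1 Mb, is at 1.66.

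Gene ends are more often strong regions, and strong regions entered the set less often: 3.49% of eligible regions from 2 to 4 CPM in NCA, 2.34% from 4 to 8 CPM and 0.840% from 8 to 16 CPM. The control level is part of the rule, and its part in the shares at gene ends was not tested. From 2 to 4 CPM they were 0.573% of members and 5.18% of eligible regions, and from 4 to 8 CPM they were 1.12% and 10.1%. From 8 to 16 CPM none of the 104 members lay at a gene end, against 27.6% of eligible regions. Below 2 CPM, where an eligible region has to be higher in an oligonucleotide group than in NCA, the shares were 1.65% and 2.75%.

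The distal position was shared by regions higher with ASO2 on either side of the band. Within 1 kb of a gene end lay 0.996% of those with ASO10 over 25% above NCA and 1.111% of those with ASO10 over 20% below it, at median distances of 121 and 80.0 kb. Regions higher with both oligonucleotides by the mirrored rule lay at a median of 146 kb, with 0.658% at gene ends. The regions lower with ASO2 only had 8.33% at gene ends and a median distance of 26.2 kb, and those higher with ASO10 only 5.43% and 36.4 kb. The differences between these sets were not tested.

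The 19 members at gene ends are the exceptions. The strongest lay 0.694 kb from NIM1K, which encodes a protein kinase (chr5:43281544-43282677). It had 19.5, 19.1 and 18.8 CPM with ASO2, 8.80, 9.002 and 8.81 with ASO10, and 9.44, 6.91 and 7.19 with NCA, so the spread within the ASO2 group was much smaller than the step to the other groups. At an end of SEMA3A, which encodes a secreted axon guidance cue (chr7:84492380-84493255), the values were 10.8, 15.1 and 12.6 CPM with ASO2, 7.08, 6.45 and 9.81 with ASO10, and 8.17, 7.03 and 5.73 with NCA. At PCDH17, a protocadherin gene (chr13:57728701-57729353), they were 11.2, 13.5 and 9.77 CPM with ASO2, 4.68, 5.56 and 6.21 with ASO10, and 4.98, 4.56 and 5.28 with NCA. ASO10 and NCA overlapped at all 3 of these genes apart from ASO2. At SCD, the gene of a fatty acid desaturase (chr10:100364636-100365210), ASO2 had 8.77, 7.62 and 9.96 CPM and NCA 5.10, 3.21 and 3.597.

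Members were found on every main chromosome except Y, at unequal rates. Chromosome 3 held the most, 204, or 4.30 per 100 eligible regions, and chromosome 1 held 195, or 2.11 per 100. The highest rates were 4.86 on chromosome 18, 4.70 on chromosome 4 and 4.51 on chromosome 13. The lowest were 0.256 on chromosome 19, 0.589 on chromosome 22 and 0.891 on chromosome 16. Chromosomes 19, 22 and 16 are gene-rich and chromosomes 18, 4 and 13 gene-poor, as known from the genome's annotation. On chromosomes 19, 22 and 16, 41.1%, 27.9% and 27.9% of eligible regions lay within 1 kb of a gene end. On chromosomes 18, 4 and 13 these shares were 22.03%, 14.9% and 8.33%, against 18.1% over all main chromosomes. Chromosome 20 had a share of 14.2% and a low rate, 1.13 per 100. The part of gene density in the rates was not tested.

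Most members stood alone. With members joined when their midpoints lay within 100 kb, there were 1639 groups, of which 1372 were single regions, 213 were pairs and 54 held at least 3 members (177 members in all). The largest had 6 members over 306 kb at DACH1, a gene for a transcriptional cofactor (chr13:71408048-71713598), where 11 eligible regions lay. Groups of 5 lay at NYAP2 (chr2:225319738-225457854), at ROBO2 (chr3:77281821-77464406) and between ZIC1 and AGTR1 (chr3:147963629-148165734). In the last of these every member was over 500 kb from both genes. A group of 4 lay in NLGN1, which encodes the synaptic adhesion protein neuroligin (chr3:174097407-174186973).

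At DACH1 the strongest member (chr13:71634423-71635428) had 15.8, 11.9 and 15.3 CPM with ASO2, 8.34, 10.8 and 5.83 with ASO10, and 7.27, 9.01 and 6.63 with NCA. A second (chr13:71713045-71713598) had 10.6, 12.1 and 9.50 CPM with ASO2, 3.43, 5.11 and 3.23 with ASO10, and 4.72, 2.22 and 4.16 with NCA. The ratios of the 6 ranged from 1.88 to 3.01, and the ASO10 to NCA ratio had a median of 1.06. In the intergenic group near ZIC1 the first member (chr3:147963629-147964520) had 12.8, 13.4 and 11.7 CPM with ASO2, 3.88, 3.67 and 2.85 with ASO10, and 3.06, 4.69 and 4.83 with NCA. ASO2 was separate and high in all of these, and ASO10 overlapped NCA.

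A protein-coding gene lay within 500 kb of 1750 members, as host or as nearest gene, and 1199 different genes were found in this way. Of these, 861 had 1 member and 22 had at least 5. The 8 genes with the most members were ROBO2 with 12 of its 61 eligible regions, ERBB4 with 8 of 35, DPH6 with 7 of 31, DACH1 with 7 of 36, PARD3B with 7 of 37, NAALADL2 with 6 of 42, GPC6 with 6 of 53 and CNTNAP4 with 5 of 14. The last place was shared by 15 genes with 5 members, of which CNTNAP4 had the highest share of its eligible regions. For comparison, 2.73 per 100 eligible regions were members over the whole table. Long genes have more regions that can be counted, and ROBO2 spans 1743 kb. ROBO2 encodes an axon guidance receptor for Slit proteins, ERBB4 a receptor for neuregulins, PARD3B a cell polarity protein, GPC6 a glypican of the cell surface and CNTNAP4 a neurexin-family protein.

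The ROBO2 members were spread over most of the gene. Of the 12, 11 lay inside it and 1 lay 293 kb beyond its end. The strongest (chr3:76047340-76048082) had 18.5, 19.5 and 21.4 CPM with ASO2, 12.7, 12.4 and 13.7 with ASO10, and 9.70, 10.4 and 11.5 with NCA, so that here ASO10 was also above every NCA library. The member with the highest ratio of the gene, 3.65 (chr3:76482166-76482826), had 10.4, 6.08 and 9.96 CPM with ASO2, 2.97, 2.89 and 2.85 with ASO10, and 2.55, 2.22 and 2.47 with NCA. ASO10 lay above all NCA libraries there too, by a small step. The weakest (chr3:76557165-76557457) had 2.33, 4.02 and 3.47 CPM with ASO2 and 3.08, 1.56 and 1.49 with ASO10, and these groups overlapped.

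**Figure D3:**
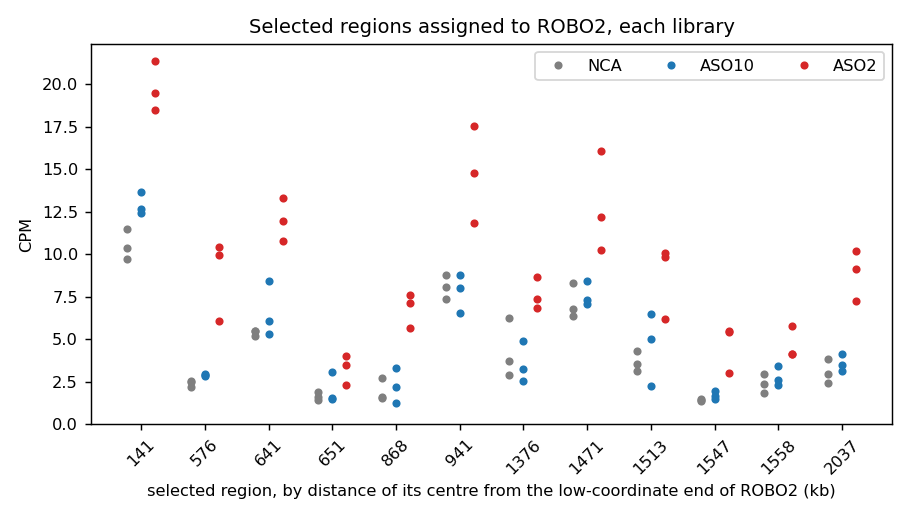
CPM of each of the 9 libraries in the 12 selected regions assigned to ROBO2, ordered by distance from the gene's low-coordinate end in kb (not to scale), with NCA in grey, ASO10 in blue and ASO2 in red. In every region the 3 ASO2 points lie above the 3 NCA points, as the rule requires. In the region at 651 kb, and also in the region at 1513 kb, 1 ASO10 point lies among the ASO2 points.

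At ERBB4 the member with the highest ratio, 4.58, lay 30.3 kb outside the gene (chr2:212569057-212569405). It had 4.39, 4.43 and 4.38 CPM with ASO2, 0.685, 0.778 and 1.74 with ASO10, and 0.893, 0.864 and 1.12 with NCA. In PARD3B the strongest (chr2:204879702-204881537) had 18.4, 24.5 and 19.1 CPM with ASO2, 13.9, 7.67 and 8.44 with ASO10, and 8.93, 10.1 and 9.67 with NCA. In this region the first ASO10 library stood above NCA and the other 2 below it. In NAALADL2 the strongest (chr3:175212124-175213796) had 21.0, 24.5 and 20.1 CPM with ASO2 and 8.42, 10.98 and 8.54 with NCA. The ratio medians of the 8 genes listed ranged from 1.97 at CNTNAP4 to 2.60 at DACH1.

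Lists of genes were compared by how many of the eligible regions assigned to them were members. Very long genes outside the other lists had 89 members among 1089 eligible regions (8.17 per 100, at 25 of 36 genes), and synaptic adhesion genes had 75 of 1032 (7.27 per 100, at 32 of 56 genes). Axon guidance genes had 36 of 609 (5.91 per 100, at 14 of 31 genes), and ion channels and receptors 21 of 495 (4.24 per 100, at 11 of 40 genes). Adrenergic factors had 9 of 175 (5.14 per 100) and mesenchymal factors 5 of 157 (3.18 per 100). Genes of the stress response had 1 of 114, p53 targets 0 of 62 and AP-1 factor genes 0 of 67. The whole table had 2.73 per 100. No list was tested against it, and the last 3 hold too few eligible regions to read a difference from. The neuronal lists hold many long genes, and gene length and list were not separated. The lists were chosen with earlier results of these data known, so their rates are a description and no independent comparison.

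Among the adrenergic factors, the transcription factors that set this cell state, 5 of 18 genes had members: EYA1, GATA3, HAND2, ISL1 and KLF7. The member inside GATA3 (chr10:8066751-8067218) had 6.72, 4.02 and 5.39 CPM with ASO2, 1.94, 3.22 and 2.98 with ASO10, and 1.66, 2.96 and 1.91 with NCA. ASO10 overlapped NCA there. The member 117 kb from HAND2 (chr4:173647585-173648304) had 9.19, 9.58 and 8.77 CPM with ASO2, 4.11, 2.67 and 4.97 with ASO10, and 3.06, 4.44 and 4.27 with NCA. The named members at EYA1, 4 in number, had ratios from 1.91 to 2.37, and the one 267 kb from ISL1 had 2.00. Among the mesenchymal factors the members lay at ZEB2, SOX9 and VIM. The one 60.3 kb from ZEB2, a repressor of epithelial genes (chr2:144580404-144581354), had 15.1, 16.7 and 10.96 CPM with ASO2, 4.80, 6.67 and 5.46 with ASO10, and 4.72, 4.44 and 5.51 with NCA. The others ranged from 1.81 to 2.07 in ratio. The only stress response member lay in SLC7A11, the cystine transporter gene (chr4:138235271-138236197), with 11.1, 12.4 and 8.40 CPM for ASO2, 3.31, 3.56 and 4.97 for ASO10, and 4.85, 4.81 and 3.15 for NCA.

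Regions outside the set were then examined by their distance to it, since the rule did not choose them. They share the libraries of the rule's contrast. Large rises had been taken out of them only where every criterion of the rule was met, including the band on ASO10. Of the 5159 eligible regions that met the ASO2 criteria, 2914 had ASO10 above the band and 270 below it. These regions stayed outside the set. Within 10 kb of a member, 1881 such regions were tested, with a median log2 fold change of ASO2 over NCA of 0.19. The median was 0.096 from 10 to 100 kb (14057 regions), -0.014 from 100 kb to 1 Mb (54328) and -0.082 over 1 Mb (46012). Over all tested regions, members included, it was -0.024. The medians fell with distance from the set. For ASO10 over NCA the same classes had medians of 0.019, 0.0048, -0.015 and -0.0099, all close to 0.

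Calls followed the same order. edgeR's quasi-likelihood test called 204 of the regions within 10 kb higher with ASO2 (10.8%) and 10 lower, and 1125 of those from 10 to 100 kb higher (8.003%) and 99 lower. The 109 lower in all were 55 without ASO2 replicate 1 and 66 without NCA replicate 1, and 172 with loess offsets on abundance. The share higher was 4.39% from 100 kb to 1 Mb and 1.40% over 1 Mb. Of the 1329 flanking regions called higher within 100 kb, 711 met the ASO2 criteria of the rule with ASO10 over 25% above NCA, and 54 with ASO10 over 20% below it. Without ASO2 replicate 2 the count of 1329 was 803. With gene ends (1 kb or less away) left out of both, 8.86% of flanking regions within 100 kb were called higher, against 5.42% of all tested. The latter share includes members, which the flanking regions leave out. With gene ends counted, 1371 members were called higher.

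Among flanking regions called higher, the smallest adjusted p belonged to one 451 kb from AGTR1, the angiotensin receptor gene, and one 50.3 kb from CYLC2. The region near CYLC2 (chr9:103068741-103069522) had 24.5, 20.1 and 17.5 CPM with ASO2, 8.57, 10.4 and 9.68 with ASO10, and 4.98, 6.17 and 7.53 with NCA (log2 fold change of ASO2 over NCA 1.73 ± 0.19 SE, adjusted p = 3.73e-16 by edgeR). All 3 groups were apart, in the order NCA, ASO10, ASO2. The region near AGTR1 (chr3:148245544-148247018) had 41.5, 45.9 and 39.3 CPM with ASO2, 38.8, 32.9 and 37.2 with ASO10, and 24.1, 15.5 and 15.8 with NCA. In MAP2, which encodes a neuronal microtubule-associated protein (chr2:209638268-209639141), ASO2 had 15.9, 23.4 and 17.8 CPM and NCA 6.25, 5.55 and 5.62. Flanking regions could also be lower. One in GPC5 (chr13:91620508-91621639) had 7.13, 4.53 and 8.86 CPM with ASO2, 6.51, 6.33 and 8.07 with ASO10, and 14.5, 18.5 and 13.7 with NCA (log2 fold change -1.17 ± 0.20, adjusted p = 8.72e-07). In CFAP95 a region (chr9:69874443-69875039) next to one of the strongest members had 3.29, 6.08 and 6.76 CPM with ASO2 and 8.30, 13.4 and 12.7 with NCA, the opposite order to its neighbour.

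Start regions of the neighbouring genes had calls and medians close to those of all start regions. A start site was on hand for 982 of the 1199 genes (none on chromosome 8), and 774 regions within 1 kb of the start of 755 genes were tested. For ASO2 against NCA, edgeR called 6 higher (0.775%) and 7 lower (0.904%), with a median log2 fold change of -0.035. All start regions had 52 higher and 103 lower of 10394, with a median of -0.046. For ASO10 against NCA, edgeR called 14 higher (1.81%) and 0 lower, with a median log2 fold change of 0.10. With an unadjusted p under 0.05, 21 were lower, and DESeq2 called 0 lower. Over all start regions 233 were higher (2.24%) and 5 lower (0.0481%), with a median of 0.097. For ASO2 against ASO10, 3 were higher and 25 lower (3.23%), with a median of -0.14, against 31 higher, 346 lower (3.33%) and a median of -0.16 over all start regions.

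Few single start regions changed. At TSHZ2, a zinc finger gene (chr20:52971757-52975517), ASO2 had 44.1, 47.9 and 47.6 CPM, ASO10 37.1, 37.8 and 37.9, and NCA 36.6, 32.7 and 31.7. The log2 fold change of ASO2 over NCA was 0.48 ± 0.12 (adjusted p = 0.00269, edgeR). At MYT1L, a neuronal transcription factor gene (chr2:2331121-2333443), ASO2 had 46.9, 46.1 and 51.2 CPM and NCA 34.1, 38.9 and 39.1 (0.38 ± 0.12, adjusted p = 0.0313 by edgeR). All ASO2 libraries were above all NCA libraries at both, by a smaller step than in the members. At ADAM23, a gene for a neuronal adhesion protein (chr2:206442696-206444435), ASO2 had 17.4, 18.2 and 17.4 CPM, ASO10 20.2, 20.6 and 19.7, and NCA 27.6, 25.4 and 23.5 (-0.51 ± 0.14, adjusted p = 0.0120 by edgeR). With the replicate block the counts were 3 higher and 4 lower, and leaving out ASO2 replicate 1 or 2, ASO10 replicate 3 or any NCA replicate gave 2 or 3 higher. Over all single libraries left out, the number lower ranged from 2 to 11.

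Summed over regions, the groups were compared library by library. The members held 1.495%, 1.54% and 1.46% of all counts in the ASO2 libraries, 0.768%, 0.742% and 0.731% with ASO10, and 0.699%, 0.685% and 0.721% with NCA. Regions within 10 kb outside the set held 1.16%, 1.22% and 1.14% with ASO2 and 1.05%, 0.992% and 1.07% with NCA. Their ratio of group means was 1.13 for ASO2 over NCA and 1.03 for ASO10 over NCA. ASO2 was apart from NCA and ASO10 overlapped it. From 10 to 100 kb the ratios were 1.09 and 1.02, with the same order. For the start regions of neighbouring genes they were 0.973, with overlap, and 1.07, without. A two-sided exact permutation test of 3 against 3 libraries cannot go below 0.1, and it gave 0.1 for ASO2 against NCA in both flanks (0.15 adjusted over 9 comparisons) and 0.6 at the start regions.

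**Figure D4:**
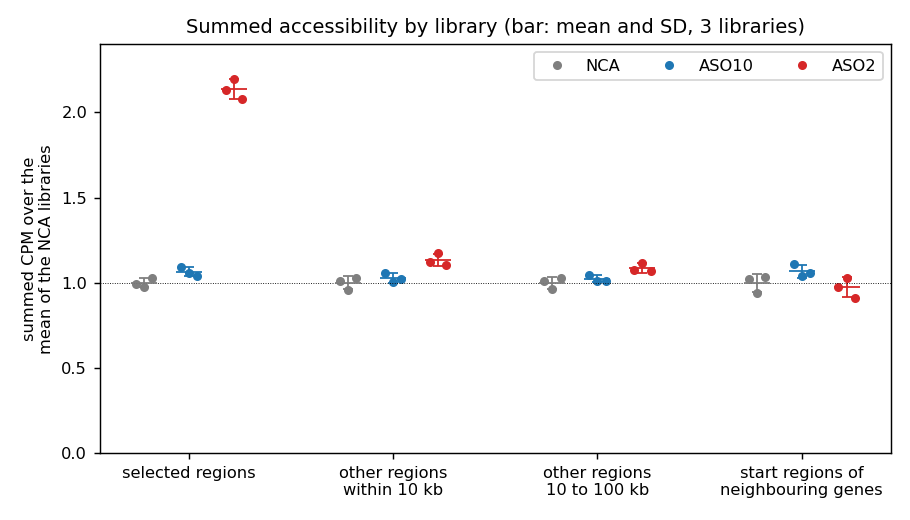
Summed CPM of each library divided by the mean of the 3 NCA libraries, for the selected regions, other regions within 10 kb and from 10 to 100 kb of them, and start regions of neighbouring genes (points are libraries, bars the mean and SD of 3). The selected regions stand at 2.08 to 2.19 with ASO2, as their choice requires, while the flanks stand at 1.07 to 1.17 with ASO2 and the start regions lie around 1.

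**Figure D5:**
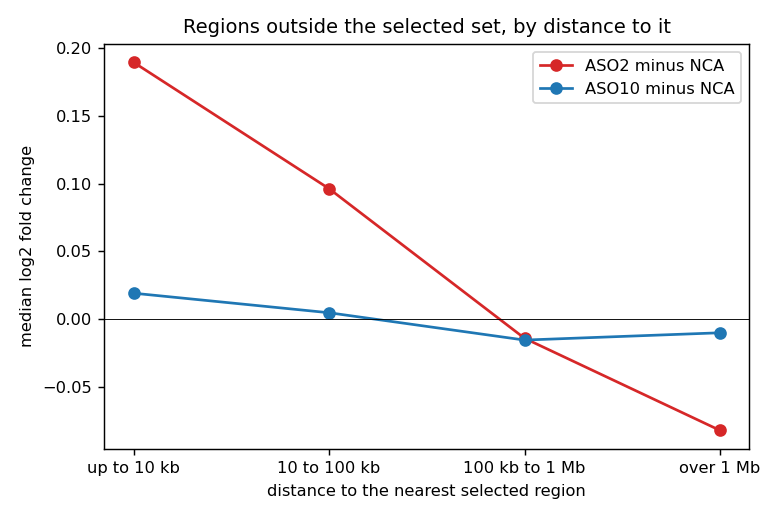
Median log2 fold change of regions outside the selected set in 4 classes of distance to the nearest selected region, for ASO2 over NCA (red) and ASO10 over NCA (blue). The red line falls from 0.19 within 10 kb to -0.082 over 1 Mb, and the blue line stays between -0.015 and 0.019.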

How the data were processed

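The study holds 9 ATAC-seq libraries, 3 each of SK-N-BE(2)c cells given ASO2, ASO10 or NCA. The authors' deposited values are raw counts, whole numbers in 148797 regions that all libraries share, with no normalization, as the values show. FastQC, Bowtie2 2.2.6, SAMtools, MACS2 2.1.2, DESeq2 1.42.0 and the builds hg38 and GRCh38 are named, with no role, per the submitters' processing notes. Filters, the shift of Tn5 cut sites and whether reads, pairs or cuts were counted are not given in the sources used here. Library totals were 7293565 to 10948569 counts.

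The members and gene lists were chosen with earlier results of these data known. Regions were filtered with filterByExpr by group (119417 left), scaled by TMM and tested with edgeR 4.0.16 in R 4.3.3 (quasi-likelihood, robust, all 9 libraries, group as the only term), with Benjamini-Hochberg adjustment over all tested regions and a threshold of 0.05. The fit was tested on simulated counts. Genes, starts and promoter sequences came from RefSeq tables (GRCh38.p14), which held a start for 15841 of 20033 protein-coding genes. Start sites and promoter windows on chromosome 8 were not used here. Neighbouring genes were hosts or the nearest within 500 kb. Coordinates are 1-based as in the region names. No 2 libraries were copies (chi-square per degree of freedom 2.93 to 3.65 within groups).

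Named regions were the 8 highest ratios (NCA at least 1 CPM), the 5 highest mean CPM, up to 8 at gene ends, the 5 largest groups, the 8 genes with most members, members at the listed factors, and the regions at each limit of the rule. Flanking and start regions were ranked by adjusted p. Regions of promoter windows were chosen after their motifs were seen. Alternatives were DESeq2, other scalings and filters, a replicate block, other limits of the rule, and each library left out.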

Additional observations from a re-analysis of the deposited data

Results flagged for a closer look

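ASO2 and ASO10 differed, by edgeR's direct comparison, in 638 of 15938 tested regions within 100 kb of a member (567 higher and 71 lower with ASO2), with the members themselves left out. These were 3.56% higher and 0.445% lower, where 2.55% of all tested regions were higher and 0.682% lower. The 2.55% (3041 regions) includes the members, of which 1045 were called higher with ASO2 than ASO10. The same comparison called 28 of 774 start regions of neighbouring genes (3 higher and 25 lower with ASO2). These were singled out because the effects of the oligonucleotides differed by a test of the difference itself. Over all start regions the comparison called 31 higher (0.298%) and 346 lower (3.33%) of 10394. The shares at the neighbouring genes were near these (0.388% and 3.23%), so their start regions do not set those genes apart.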

How the results depend on the processing

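Of 180 alternative values over 12 results, 141 were labelled the same as the reported value and 39 moved. The label is broad. It took in 965 members called higher with ASO2 than NCA without NCA replicate 1, against 1371. It also took in a start-region median of 0.022 without ASO2 replicate 3, against -0.035. The number of members was 964 with a mean CPM of at least 4, 3190 and 1201 with a minimum ratio of 1.5 and 2, and 912 with an ASO10 band from 0.9 times NCA to the inverse of that factor. The share at gene ends was 6.38% with a 5 kb window, 3.39% with long non-coding genes 0.354% at start sites only and 0.378% at start sites without chromosome 8, the last 2 added after seeing the data. There were 20 groups of at least 3 members when joined within 50 kb and 106 within 200 kb. Flanking regions called higher with ASO2 numbered 204 within 10 kb and 3712 within 1 Mb. Leaving out 1 library at a time, the members called higher with ASO2 than NCA ranged from 892 to 1363, those called higher with ASO2 than ASO10 from 606 to 1067, flanking regions called higher from 803 to 1306, those lower from 55 to 101, and start regions called higher from 2 to 7. Start regions called lower (7) ranged from 2 to 11, and their median log2 fold change from -0.11 to 0.022. The number of members ranged from 1949 to 2202 and the share at gene ends from 0.924% to 1.45% (without ASO2 replicate 2). The counts of members and flanking regions called higher were lowest without ASO2 replicate 2, and the cause was not tested. With TMM factors 1842 of 1975 members were kept. Leaving out a library kept from 66.9% (NCA replicate 2) to 87.1% (ASO2 replicate 3) of members. Correlations of deviations between libraries of different groups were small, from -0.0066 to 0.042 for the same replicate number and from -0.033 to 0.022 for others. For each ASO10 library the same-numbered library had the highest correlation in both other groups. A weak pairing by replicate number was not tested. With the replicate block, the start regions called higher were 3 in place of 6, those lower 4 in place of 7, members called higher with ASO2 than NCA 1350, and no other call changed by over 1.5 times. Depth limits the weakest members, whose control libraries held as few as 2 counts.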
